A study of Rattus norvegicus with 6 samples.

Results

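Chromatin accessibility at the genes of cyclic AMP signalling was compared between adult and P10 rat pancreatic islets. The 10 genes considered were the adenylyl cyclases Adcy5 and Adcy8, the phosphodiesterases Pde3b, Pde4b and Pde4d, the effectors Prkaca and Rapgef4, the transcription factors Creb1 and Crem and the coactivator Crtc2. Every accessible site (ACS) of the deposited table whose nearest gene was one of them was taken, whatever its distance or its change with age. This gave 130 ACS of 101603 distinct ACS in all, and they belonged to 9 of the 10 genes. Rapgef4, which encodes the cyclic AMP sensor Epac2, had 0 ACS under its symbol and was not analysed here. The number of ACS per gene was uneven, with 46 for Adcy8, 40 for Pde4b, 12 for Adcy5, 10 each for Pde3b and Creb1, 6 for Crem and 2 each for Pde4d, Prkaca and Crtc2.

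In islet cells, adenylyl cyclases make cyclic AMP from ATP when hormones such as GLP-1 or glucagon act on receptors coupled to stimulatory G proteins, and some cyclases also respond to calcium. Phosphodiesterases break cyclic AMP down and so limit its level and spread. In β-cells cyclic AMP amplifies insulin release by glucose through protein kinase A and Epac2, and through CREB, its relative CREM and the coactivators CRTC it changes the transcription of genes that carry a cyclic AMP response element (CRE) in their promoter.

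In ATAC-seq, accessibility is read from the places where the Tn5 enzyme cuts and tags DNA, and each such event is counted here as 1 integration. Dissociated islets came from 3 male adult Sprague-Dawley rats aged about 3 months, with 1 library per rat, and from pups at postnatal day 10 (P10), with 3 libraries that were each a mix of a few pups of 1 litter. Neither age carried a genotype or a treatment. The pups were of both sexes, so age, sex and the mixing of pups cannot be told apart in the comparison. Because whole islets were measured, fewer cells of a type and less accessibility per cell cannot be told apart either.

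The libraries held between 7916919 and 11903909 integrations in ACS in adults (replicates 4, 5 and 6) and between 13491534 and 21168463 in P10 (replicates 1, 2 and 3). Accessibility is given as CPM, the integrations of an ACS per 1000000 integrations in all ACS, with library sizes adjusted by TMM (trimmed mean of M values). Differences were tested with the quasi-likelihood test of edgeR over all ACS, with the false discovery rate (FDR) of Benjamini and Hochberg. An ACS was called Up (higher in adults) or Down (higher in P10) where p was under 0.05 and the FDR was under 0.2. Positive log2 fold changes mean higher values in adults, and their standard errors (SE) were derived from the F statistic. Start sites of the islet genes Ins1, Iapp, Nkx6-1 and Gcg had an ACS. So did those of the acinar genes Ptf1a and Rbpjl and the duct genes Krt19, Sox9 and Cftr. Peaks of both ages were merged into a single list, so a listing alone does not show a cell type at either age. The start ACS of Ins1 held 75.1 to 94.9 CPM in adults and 106 to 203 CPM in P10. The age of each library, and so every Up and Down below, rests on the names of the count columns, which were matched to the sample titles. The start ACS of Ucn3, a gene known to be switched on as β-cells mature, held 19.9, 15.2 and 18.6 CPM in adults and 14.4, 10.8 and 11.4 CPM in P10 (log2 fold change 0.55, edgeR FDR 0.110). Other start ACS of the beta cell list went otherwise. Those of Ins2 (log2 fold change -1.12, edgeR FDR 0.0133) and Ins1 (-0.75, edgeR FDR 0.00742) were Down, and those of Iapp, Pdx1 and Nkx6-1 were not called. At the same limits, the paper reports a larger share of ACS more accessible in P10 than in adults. With the columns as labelled, the larger share was instead higher in adults (12.3% Up against 6.63% Down). The cause of this difference was not tested. Whether columns and titles could be exchanged between the ages was not tested otherwise. Of 38 marker genes of 9 cell types, 34 had ACS. The summed CPM did not overlap between the ages for the alpha cell list (718 to 825 in adults, 584 to 666 in P10), the acinar list (357 to 405 against 342 to 356), the duct list (244 to 277 against 212 to 236), the endothelial list (344 to 408 against 295 to 322) and the glia list (7.61 to 9.06 against 10.1 to 12.3). The sums overlapped for the beta cell list (905 to 1043 against 851 to 1153), the delta cell list (141 to 183 against 151 to 167), the mesenchyme list (115 to 132 against 124 to 135) and the immune list (19.1 to 27.6 against 21.5 to 31.3). Sums weigh the ACS with the most integrations most. The median log2 fold change was 0.17 in the alpha, 0.01 in the acinar and -0.07 in the duct list. It was 0.11 in the endothelial and -0.40 in the glia list. The duct start ACS of Sox9 (-0.74) and Cftr (-0.73) were Down, and that of Krt19 (-0.47) was not called. In the delta cell list, the start ACS of Hhex were Down (-0.83 and -0.76) and that of Sst was not called (-0.44). The part of these cell types in the results was not tested.

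The sequence through which this pathway acts on genes is shown first, at Crem. Among the members with a RefSeq promoter, Crem was the one with full CRE matches, and its ACS are described further on. A CRE was searched as TGACGTCA, which reads the same on both strands, and a shorter form of it as TGACG on both strands, so that each full match also holds the shorter form. The windows were RefSeq promoters of the GRCr8 build, from 250 bases before to 50 bases after a transcription start. Of 33469 promoters, 612 (1.83%) held the full motif and 21.2% held the shorter form. The tables held 16 promoters of 8 of the 10 genes, and 2 of these promoters held the full motif and 8 the shorter form. Adcy8 and Pde3b had no promoter entry and were not searched. Both promoters with the full motif were internal promoters of Crem, 50731 and 51424 bp after its first start on chromosome 17, and the second of them held it at 2 places. In the following sequences, both on the plus strand, the capitals mark the full motif.
Crem internal promoter at chr17:58984547-58984846 (GRCr8), with the motif beginning 56 bases before the start: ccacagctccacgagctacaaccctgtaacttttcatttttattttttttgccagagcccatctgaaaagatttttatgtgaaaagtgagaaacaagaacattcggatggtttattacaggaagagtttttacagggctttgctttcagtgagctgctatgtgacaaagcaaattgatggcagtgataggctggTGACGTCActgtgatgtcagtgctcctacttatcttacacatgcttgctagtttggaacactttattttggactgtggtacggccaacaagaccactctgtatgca
Crem internal promoter at chr17:58985240-58985539 (GRCr8), with the motif beginning 35 bases before and 39 bases after the start: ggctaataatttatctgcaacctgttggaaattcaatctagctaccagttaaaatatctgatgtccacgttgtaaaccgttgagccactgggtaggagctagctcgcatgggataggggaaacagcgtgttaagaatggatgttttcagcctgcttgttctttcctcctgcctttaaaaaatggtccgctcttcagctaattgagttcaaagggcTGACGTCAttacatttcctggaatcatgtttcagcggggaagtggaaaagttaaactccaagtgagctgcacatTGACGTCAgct
An internal promoter of Crem is known to make the short repressor ICER, which is induced by cyclic AMP and ends its transcriptional response. A match of these letters describes the sequence and was not tested as a binding site.

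Of the 130 ACS, 17 (13.1%) were Up and 7 (5.38%) were Down, while 106 were not called. Among all ACS the shares were 12.3% Up and 6.63% Down, or 18.9% called in either direction, against 18.5% (24 ACS) for the cyclic AMP genes. The set as a whole was therefore called about as often as any other ACS, and its median log2 fold change was 0.01 against -0.01 for all ACS. The 17 Up ACS had a median log2 fold change of 0.87 and the 7 Down ACS of -0.91, against 0.89 and -0.91 for all Up and all Down ACS. All 3 adult libraries lay above all 3 P10 libraries at 19 ACS (14.6%, and 13.8% of all ACS) and below them at 13 ACS (10.0%, and 10.9% of all ACS). The 130 ACS together took 0.115% ± 0.0076 (SD, n = 3) of the integrations in adults and 0.113% ± 0.0052 (SD, n = 3) in P10, with p = 0.7 in a two-sided exact permutation test, in which 3 against 3 libraries cannot give less than 0.1. Coverage was close to that of the whole table. The mean count per library had a median of 62.7 over the 130 ACS and of 64.8 over all ACS, and 11 of the 130 had a mean under 20.

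The genes with the most ACS, Adcy8 with 46 and Pde4b with 40, also had the most calls. Over all ACS, 12.3% were Up and 6.63% Down. Adcy8 had 7 Up and 1 Down, Pde4b 6 Up and 2 Down, Creb1 3 Up and 1 Down, and Adcy5 1 Up and 1 Down. Pde3b and Crem had 1 Down ACS each, and Pde4d, Prkaca and Crtc2 had none called among 2 each. Adcy8 and Pde4b together held 13 of the 17 Up ACS and 86 of the 130 ACS. The plot of calls per gene shows these counts.

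**Figure D1:**
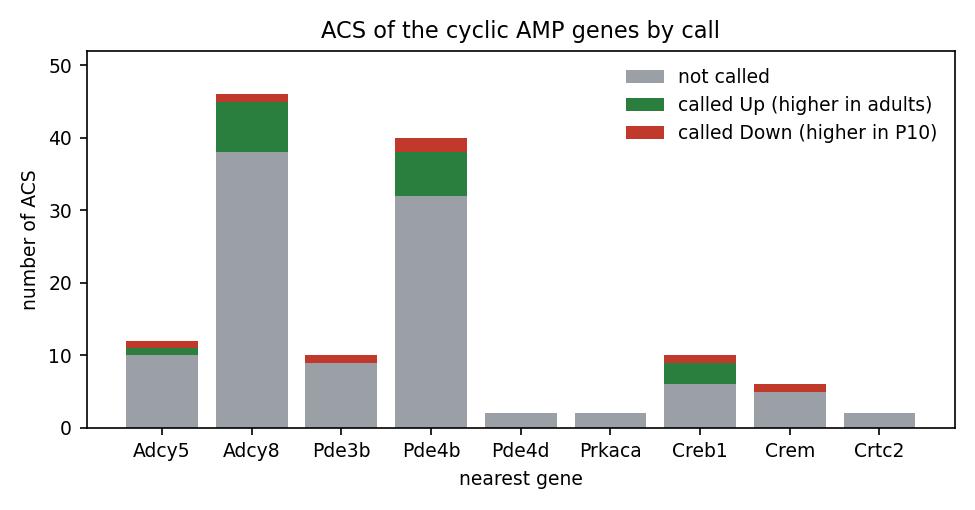
Number of ACS (vertical axis) whose nearest gene is each of the 9 genes, stacked by call, with green for Up (higher in adults), red for Down (higher in P10) and grey for not called. Adcy8 with 46 and Pde4b with 40 hold most of the ACS and 13 of the 17 Up calls.

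No call lay at a start site. ACS were classed by the distance of their first coordinate from the gene start as TSS (within 1000 bp), proximal or distal (beyond 10000 bp). None of the 12 TSS ACS was called, with log2 fold changes from -0.51 to 0.22 and a smallest FDR of 0.324, while 10.6% of all TSS ACS were called. By unadjusted p-value, too, none of the 12 lay under 0.05. The start ACS of Adcy5 at 295 bp and of Crem became Down with column sums as library sizes (log2 fold changes -0.61 and -0.31, edgeR FDR 0.198 and 0.162) and with a mean of at least 50 counts (-0.60 and -0.30, edgeR FDR 0.168 and 0.151). With total reads, 9 of the 12 were Down. The 2 proximal ACS, both of Adcy8, were Up. Of the 116 distal ACS, 15 (12.9%) were Up and 7 (6.03%) Down, against 13.8% and 6.45% of all distal ACS. By distance, 2 Up and 5 Down ACS lay among the 40 between 10 and 100 kb, 11 Up and 2 Down among the 53 between 100 and 500 kb, and 2 Up and 0 Down among the 23 beyond 500 kb. Of all ACS, 13.9% were Up and 6.69% Down between 10 and 100 kb, 14.2% and 6.24% between 100 and 500 kb, and 11.7% and 6.12% beyond 500 kb. The Up ACS were 6 upstream of their gene, 7 inside it and 4 beyond its end, and the Down ACS were 1 upstream and 6 inside.

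Adcy8 encodes a calcium-stimulated adenylyl cyclase, which in β-cells couples glucose and GLP-1 signals to cyclic AMP. Its Up ACS lay just outside the start, inside the gene and far beyond its end. The Rn5 annotation places the gene on the minus strand of chromosome 7, from 105301842 to 105540451. The ACS nearest to the start among those called began 1228 bp upstream (7, 105541679 to 105541999). It held 10.8, 12.9 and 12.4 CPM in the adult libraries (replicates 4, 5 and 6) and 5.90, 5.14 and 5.76 CPM in the P10 libraries (replicates 1, 2 and 3). The ages did not overlap, and the log2 fold change was 1.10 (SE 0.24, edgeR FDR 0.00271). By contrast, the 4 TSS ACS of Adcy8 held between 2.73 and 6.70 CPM over all libraries, none was called, and their log2 fold changes ran from -0.14 to 0.22.

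Inside the first part of Adcy8, 8171 bp from the start, an ACS (7, 105532280 to 105532858) held 32.4, 22.5 and 36.4 CPM in adults and 17.2, 14.3 and 19.8 CPM in P10. Every adult library was above every P10 library (log2 fold change 0.83, SE 0.20, edgeR FDR 0.00787). The 3 ACS of Adcy8 with the largest differences all lay beyond its end. They were listed with Adcy8 as their nearest gene, and whether they act on it was not tested. The one closest to the end, 254539 bp from the start and 15431 bp past the gene (7, 105285912 to 105286411), held 42.7, 27.0 and 36.2 CPM in adults and 12.3, 10.6 and 8.99 CPM in P10. It was 3.32-fold higher in adults (log2 fold change 1.73, SE 0.21, edgeR FDR 2.71e-06), and per kb of ACS its adult level of 70.6 CPM was the highest among the distal ACS of the 9 genes.

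A second ACS beyond Adcy8, 311322 bp from its start (7, 105229129 to 105229388), held 6.87, 7.30 and 7.22 CPM in adults and 2.09, 2.50 and 1.74 CPM in P10. Its log2 fold change was 1.76 (SE 0.29, edgeR FDR 1.94e-04), the highest among the 130 ACS. The third, 508364 bp from the start (7, 105032087 to 105032533), held 23.9, 24.7 and 17.8 CPM in adults and 6.23, 6.28 and 8.14 CPM in P10. All 3 were more than 3-fold higher in adults, with no overlap between the ages, and the last had a log2 fold change of 1.69 (SE 0.22, edgeR FDR 1.03e-05). The remaining called ACS of Adcy8 had smaller differences, with log2 fold changes of 0.53 at 176714 bp, 0.52 at 437704 bp and -0.64 at 231511 bp, the last being Down with overlap between the ages. The 38 ACS not called ran from -0.62 to 0.58.

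Adcy5 encodes a calcium-inhibited adenylyl cyclase. Its 12 ACS held 1 Up and 1 Down call, both upstream of the gene (chromosome 11, minus strand, 71787104 to 71933840). The Down ACS, 93540 bp upstream (11, 72027380 to 72027603), held 5.06, 4.28 and 3.09 CPM in adults and 7.53, 7.49 and 8.62 CPM in P10. The ages did not overlap (log2 fold change -0.91, SE 0.27, edgeR FDR 0.0314). The Up ACS, 15355 bp upstream, held 4.25, 5.06 and 12.4 CPM in adults and 4.42, 4.78 and 3.33 CPM in P10. Adult replicate 6 alone stood above the other libraries there, and the log2 fold change fell from 0.77 to 0.16 without it. The ACS that overlaps the start of Adcy5 held 4.88, 3.80 and 3.48 CPM in adults and 4.97, 6.99 and 5.50 CPM in P10, and it was not called (log2 fold change -0.51, edgeR FDR 0.324).

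Among the phosphodiesterases, Pde3b encodes the insulin-regulated enzyme that lowers cyclic AMP in β-cells and fat cells. It had the most negative log2 fold change of the 130 ACS, at a site inside the gene 69682 bp from the start (1, 190935296 to 190935799). This ACS held 1.08, 1.46 and 1.68 CPM in adults and 9.25, 4.21 and 6.03 CPM in P10. It was 4.69-fold higher in P10 (log2 fold change -2.23, SE 0.36, edgeR FDR 1.26e-04), and the spread among P10 libraries (6.49 ± 2.55 CPM, SD, n = 3) was wide beside that among adults (1.41 ± 0.30 CPM, SD, n = 3). The counts behind it were 12, 15 and 13 in adults and 199, 59 and 114 in P10. The other 9 ACS of Pde3b were not called, among them the ACS at its start, which held 24.5, 23.6 and 20.9 CPM in adults and 29.7, 24.7 and 25.7 CPM in P10 (log2 fold change -0.22, edgeR FDR 0.549).

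Pde4b encodes a phosphodiesterase specific for cyclic AMP, from the family inhibited by rolipram. Changes in both directions lay within its long gene (chromosome 5, plus strand, 125623815 to 126001128) and in front of it. The Up ACS with the smallest FDR, 142126 bp upstream (5, 125481689 to 125482254), held 29.5, 24.2 and 38.4 CPM in adults and 11.9, 14.1 and 16.9 CPM in P10. It was 2.15-fold higher in adults (log2 fold change 1.10, SE 0.20, edgeR FDR 6.32e-04). Inside the gene, 204187 bp from the start (5, 125828002 to 125828441), an Up ACS held 13.6, 7.99 and 12.4 CPM in adults and 4.37, 4.49 and 5.39 CPM in P10 (log2 fold change 1.25, SE 0.26, edgeR FDR 0.00192). A Down ACS stood close to it in the same part of the gene, 217168 bp from the start (5, 125840983 to 125841421). It held 3.34, 2.53 and 3.996 CPM in adults and 8.65, 6.63 and 8.88 CPM in P10. The ages did not overlap at either, and the Down ACS had a log2 fold change of -1.30 (SE 0.28, edgeR FDR 0.00297).

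A further Up ACS of Pde4b, 344722 bp from the start (5, 125968537 to 125968983), held 11.9, 13.1 and 10.4 CPM in adults and 5.30, 4.21 and 8.14 CPM in P10 (log2 fold change 1.004, SE 0.26, edgeR FDR 0.0116). The other called ACS of the gene had log2 fold changes of 0.87 at 553897 bp upstream, 0.48 at 214931 bp, 0.78 at 271181 bp and -0.58 at 38526 bp inside, and the ages overlapped at the ACS with 0.48 and -0.58. The ACS at the start of Pde4b held 4.52, 3.21 and 5.16 CPM in adults and 4.97, 6.99 and 5.82 CPM in P10, with overlap and no call (log2 fold change -0.47, edgeR FDR 0.379). The plot of log2 fold change against distance shows that the largest differences of both genes stood away from their starts.

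**Figure D2:**
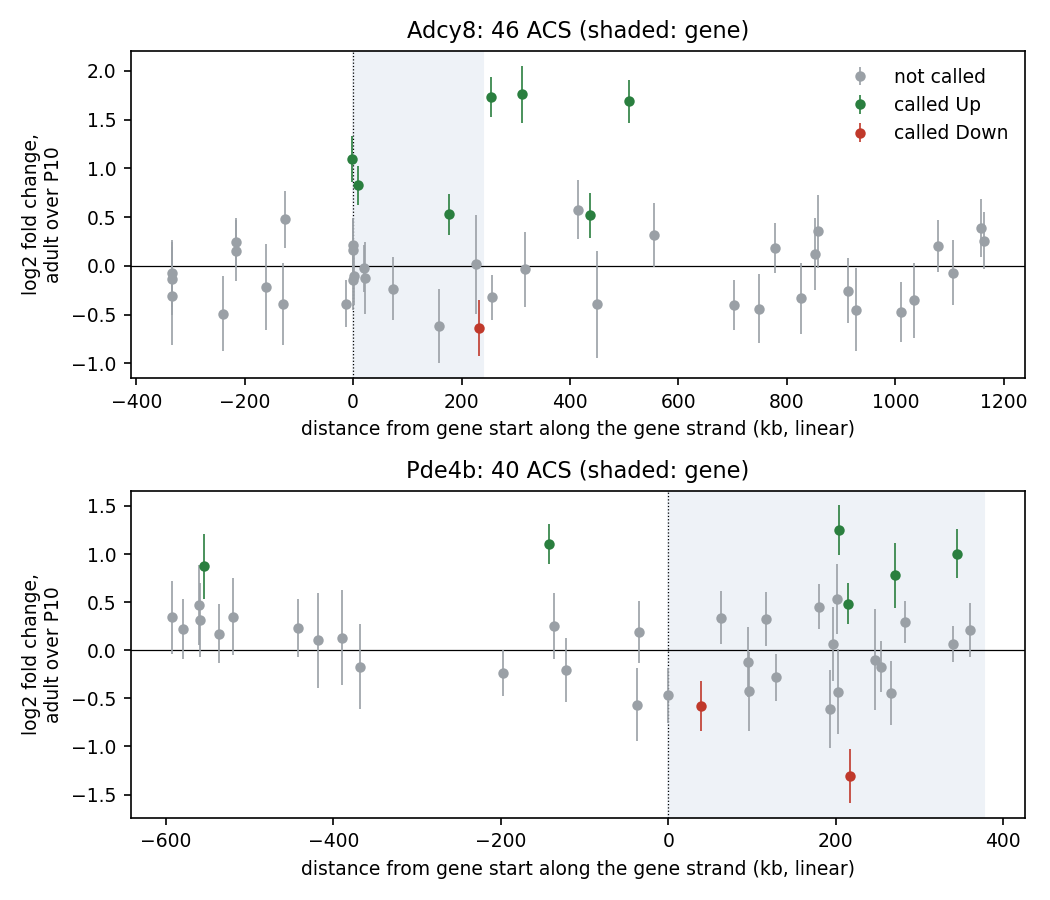
Log2 fold change of adult over P10 (vertical axis, bars are 1 SE) of the 46 ACS of Adcy8 (top) and the 40 ACS of Pde4b (bottom) against distance from the gene start in kb along the gene strand, with the gene shaded. Green points are Up, red points Down and grey points not called. The 3 highest points of Adcy8, between 1.69 and 1.76, lie past the shaded gene, and in Pde4b the points at 1.25 and -1.30 lie side by side inside it.

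Pde4d, a further phosphodiesterase specific for cyclic AMP, had only 2 ACS under its symbol, 83248 and 35179 bp upstream, and neither was called (log2 fold changes 0.20 and -0.08). The nearest-gene rule leaves out most ACS of this locus, because the gene spans 1228505 bp on chromosome 2 (59292847 to 60521351) and holds other annotated starts. Within that span lay 37 ACS, none of them listed with Pde4d. By gene ID, 30 were listed with the microRNA gene Mir582, 6 with Rab3c and 1 with Elovl7. Of the 37, 7 were Up and 3 Down (12.3% and 6.63% over all ACS), with log2 fold changes from -1.38 to 1.54. The highest, 1195748 bp from the start of Pde4d (2, 60488595 to 60488858), held 14.4, 9.74 and 14.8 CPM in adults and 4.42, 4.99 and 4.02 CPM in P10. The ages did not overlap there (log2 fold change 1.54, SE 0.25, edgeR FDR 1.55e-04). The lowest (2, 60358845 to 60359072) held 1.17, 3.12 and 2.06 CPM in adults and 5.07, 4.99 and 6.45 CPM in P10, also without overlap (log2 fold change -1.38, SE 0.34, edgeR FDR 0.00857).

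When the 9 genes were taken by their spans instead of by nearest gene, 94 ACS overlapped them, of which 51 were listed with the gene itself and 43 with another. That selection, which was made after the data were seen, gave 14 Up and 10 Down ACS, beside 12.3% Up and 6.63% Down over all ACS. Besides the 37 in Pde4d, 3 ACS inside Adcy5 were listed with Sec22a and 3 inside Pde3b with Cyp2r1. One of the latter was Down, with 0.27, 0.58 and 0.52 CPM in adults and 1.02, 1.36 and 0.85 CPM in P10 (log2 fold change -1.22, edgeR FDR 0.154).

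Prkaca encodes a catalytic subunit of protein kinase A, the main effector of cyclic AMP. Its 2 ACS were not called. The one at the start (19, 36072439 to 36073268) held 67.7, 55.7 and 54.4 CPM in adults and 61.7, 60.1 and 50.8 CPM in P10. These ranges overlapped in part, from 54.4 to 61.7 CPM. The log2 fold change of 0.04 (edgeR FDR 0.919) changed sign under 6 alternatives, for example to -0.052 with column sums as library sizes and to -0.063 without Adult 4. The other, inside the gene, held 5.15, 5.16 and 4.77 CPM in adults and 5.44, 3.92 and 4.92 CPM in P10.

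Creb1 encodes CREB, the transcription factor that protein kinase A phosphorylates and that binds the CRE. The gene lies on the minus strand of chromosome 9 in Rn5, from 71282730 to 71345853. Its start stayed uncalled beside 3 Up ACS elsewhere. The start ACS (9, 71345552 to 71346485) held 84.5, 69.1 and 96.4 CPM in adults and 74.8, 73.4 and 78.8 CPM in P10. The ages overlapped (log2 fold change 0.14, edgeR FDR 0.679), and at 89.2 CPM per kb in adults it was the highest of the 12 TSS ACS, which began at 9.55 CPM per kb.

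Of the 3 Up ACS of Creb1, a pair lay far upstream. The ACS 198445 bp upstream (9, 71544298 to 71544628) held 5.78, 4.58 and 7.48 CPM in adults and 2.60, 2.78 and 3.12 CPM in P10 (log2 fold change 1.06, SE 0.30, edgeR FDR 0.022). The ACS 181315 bp upstream (9, 71527168 to 71527807) held 23.6, 16.9 and 24.9 CPM in adults and 11.4, 11.7 and 12.5 CPM in P10 (log2 fold change 0.87, SE 0.21, edgeR FDR 0.00628). Neither overlapped between the ages. The third lay inside the gene, 12732 bp from the start (9, 71333121 to 71333687), and held 14.7, 11.8 and 16.0 CPM in adults and 8.37, 7.77 and 7.67 CPM in P10 (log2 fold change 0.83, SE 0.22, edgeR FDR 0.0166). A Down ACS was also inside the gene, 17522 bp from the start (9, 71328331 to 71328606). It rested on few integrations, 10, 4 and 1 in adults and 26, 23 and 44 in P10, and its log2 fold change of -1.75 (SE 0.52, edgeR FDR 0.0311) ranged from -2.61 to -1.39 when each library was left out.

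Crem encodes CREM, a relative of CREB whose products include the repressor ICER. Its broad start ACS (17, 55055255 to 55056678) held 99.3, 78.9 and 99.9 CPM in adults and 104, 112 and 106 CPM in P10. All P10 libraries were above all adult libraries, but the difference was not called (log2 fold change -0.21, SE 0.15, edgeR FDR 0.452). The called ACS of Crem was inside the gene, from 50988 to 52072 bp after the start (17, 55106666 to 55107750). It held 35.2, 32.6 and 36.9 CPM in adults and 44.4, 46.1 and 44.2 CPM in P10, so the libraries of each age lay close together and did not overlap. The difference was small, 1.29-fold higher in P10 (log2 fold change -0.36, SE 0.16, edgeR FDR 0.176).

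The 2 internal promoters of Crem printed above start 50731 and 51424 bp after the first start in GRCr8, at a similar distance into the gene. The coordinates of the builds cannot be laid over each other, and whether the Down ACS covers these promoters was not tested. A smaller ACS just before it, 50416 bp from the start, held 6.05, 7.40 and 7.09 CPM in adults and 7.62, 6.56 and 6.29 CPM in P10, with overlap and no call. The 3 ACS beyond the end of Crem were not called.

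Crtc2 encodes a coactivator that enters the nucleus after cyclic AMP and calcium signals and joins CREB. Its start ACS (2, 209048356 to 209049168) held 40.03, 34.1 and 31.3 CPM in adults and 43.0, 38.2 and 35.7 CPM in P10, with overlap and no call (log2 fold change -0.15, edgeR FDR 0.689). The ACS past its end held 56.7, 50.3 and 39.3 CPM in adults and 61.3, 42.1 and 44.8 CPM in P10 (log2 fold change -0.02). The plot of TSS ACS shows the libraries of both ages at the starts of all the genes with one. The ages did not overlap at those of Adcy5 at 295 bp, Pde3b and Crem, which were higher in P10. Nor did they at that of Adcy8 at 539 bp, which was higher in adults. Over all ACS, adults lay above P10 without overlap at 13.8% and below at 10.9%.

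**Figure D3:**
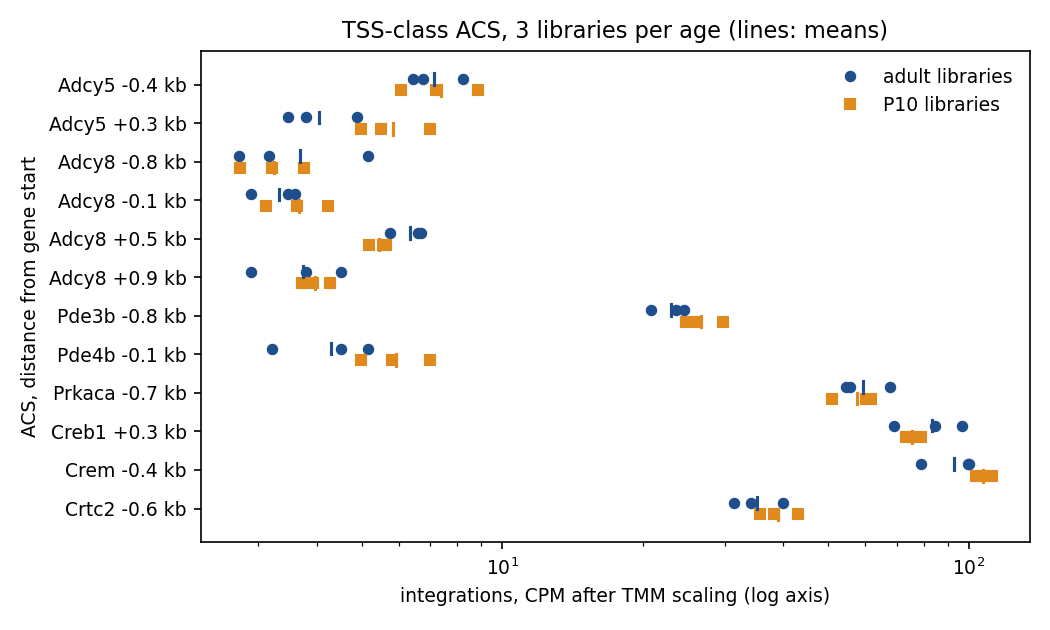
CPM (log axis) of the 12 TSS ACS in each library, with blue circles for adult and orange squares for P10 libraries and lines for the means of 3. None of the 12 was called, and 8 had a higher estimate in P10.

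Of the 24 calls, 15 (11 Up and 4 Down) were made again in all 6 fits that left out 1 library. They were the 5 Up ACS of Adcy8 at 1228 bp upstream and 8171, 254539, 311322 and 508364 bp, the 3 Up and 1 Down ACS of Creb1, 3 Up ACS of Pde4b (142126 bp upstream, 204187 and 344722 bp), its Down ACS at 217168 bp, the Down ACS of Pde3b and the Down ACS of Adcy5. The plot of these 15 shows their values by library. Of them, 6 were called under every alternative tried, namely the Up ACS of Adcy8 at 254539, 311322 and 508364 bp and the Down ACS of Adcy5, Pde3b and Pde4b.

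**Figure D4:**
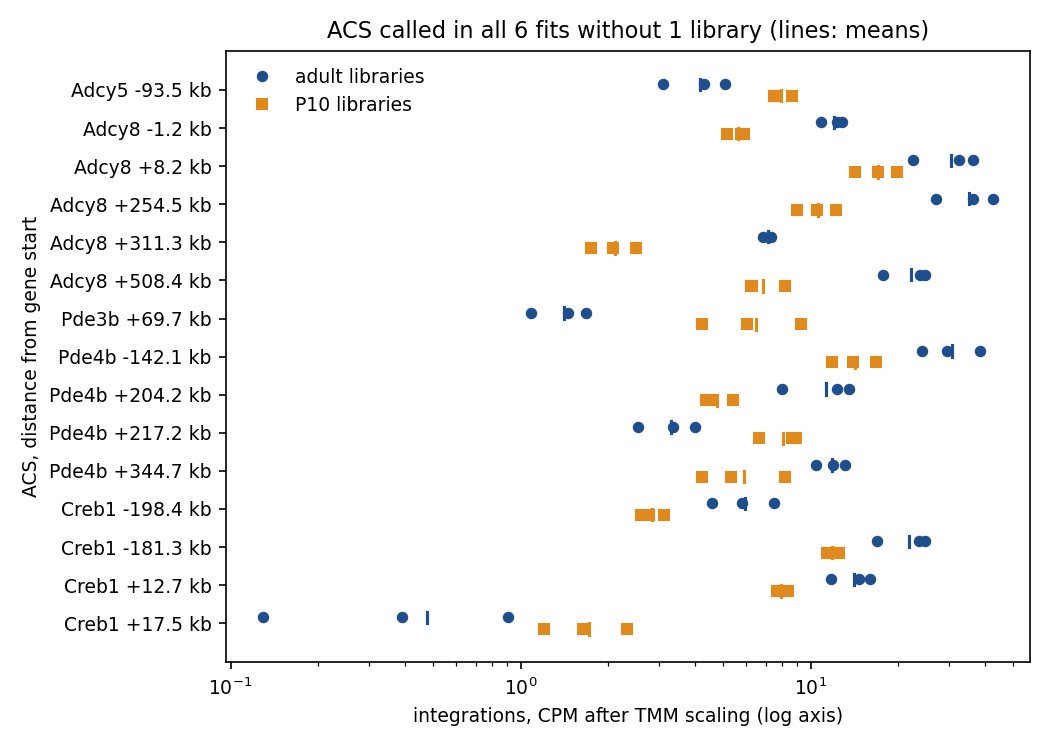
CPM (log axis) in each library of the 15 ACS called in all 6 fits without 1 library, named by gene and distance from its start, with blue circles for adult and orange squares for P10 libraries and lines for the means of 3. The ages do not overlap at any of the 15, and the Adcy8 ACS 254539 bp from the start reaches 42.7 CPM in an adult library.

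The other 9 calls were lost in at least 1 such fit. The call at Adcy5 15355 bp upstream was lost without Adult 6 (0.16), P10 1 (0.81), P10 2 (0.86) or P10 3 (0.62), in log2 fold change. That at Adcy8 176714 bp was lost without Adult 4 (0.51), Adult 6 (0.37), P10 1 (0.40) or P10 2 (0.54), and that at 437704 bp without Adult 4 (0.34), P10 2 (0.51) or P10 3 (0.44). The Down call at Adcy8 231511 bp was lost without Adult 5 (-0.48), Adult 6 (-0.62), P10 2 (-0.59) or P10 3 (-0.47). At Pde4b, the call 553897 bp upstream was lost without Adult 5 (0.58), P10 2 (0.85) or P10 3 (0.84), and the Down call at 38526 bp without Adult 5 (-0.41), Adult 6 (-0.60), P10 2 (-0.41) or P10 3 (-0.56). The call at 271181 bp was lost without Adult 6 (0.57), P10 1 (0.70), P10 2 (0.84) or P10 3 (0.76), and that at 214931 bp was kept only without Adult 5. The Down call of Crem was kept only without P10 1, with log2 fold changes from -0.40 to -0.32 over the 6 fits. All 9 kept their direction in these 6 fits. Without P10 2, 11 Up and 4 Down ACS were called, and without P10 3, 12 Up and 4 Down.

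Scaling moved the balance of directions. Among all ACS, Up made 65.0% of the calls with TMM, 54.9% with cyclic loess, 49.3% with column sums and 1.69% with the total reads of each library, which moved the median log2 fold change of all ACS by -0.83. For the cyclic AMP genes the calls were 17 Up and 7 Down with TMM, 13 and 9 with cyclic loess, 12 and 10 with column sums, and 3 and 70 with total reads. The 3 that stayed Up with total reads were the ACS of Adcy8 at 254539, 311322 and 508364 bp.

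Counts were also summed over all ACS of a gene and tested in the same way. The ACS with the most integrations weigh most in such a sum, so it does not show whether a whole neighbourhood changed. Among all genes, 8.71% were Up and 4.64% Down. Of the 9 genes, Adcy8 was called. Over its 46 ACS, 38 of them not called, the median log2 fold change was -0.05. The sum of Adcy8 was 303, 277 and 308 CPM in adults and 206, 232 and 248 CPM in P10, without overlap (log2 fold change 0.37, SE 0.12, edgeR FDR 0.0922). The call was lost without Adult 4 (FDR 0.202), Adult 6 (FDR 0.255) or P10 2 (FDR 0.332), where the log2 fold change was 0.36, 0.34 and 0.37, and its sign turned with total reads (-0.45). The sums of Pde4b (log2 fold change 0.24, FDR 0.333) and Creb1 (0.21, FDR 0.362) were not called, though both were called Up without Adult 5 (0.32, FDR 0.176, and 0.31, FDR 0.113). Those of Crem (-0.23, FDR 0.313) and Pde3b (-0.20, FDR 0.444) were not called either. Both became Down with column sums (Crem -0.32, FDR 0.0889, and Pde3b -0.29, FDR 0.173) and with a mean of at least 50 counts (-0.33, FDR 0.0743, and -0.34, FDR 0.101), and Crem also without P10 1 (-0.26, FDR 0.188). Those of Adcy5, Pde4d, Prkaca and Crtc2 lay between -0.07 and 0.05.

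Whether the ACS of 1 gene changed unequally was tested by the interaction of age with ACS within each gene. The test passed for 5 of the 9 genes, namely Adcy8 (edgeR FDR 1.42e-13), Creb1 (3.99e-06), Pde4b (1.63e-05), Pde3b (0.00159) and Adcy5 (0.0894). It passed for 43.9% of all genes with at least 2 ACS, and the share grew with the number of ACS, from 27.0% of genes with 2 to 6 ACS to 78.4% of genes with at least 40, a range that holds Adcy8 and Pde4b. For Adcy5 the result was lost without Adult 6 (FDR 0.748), P10 1 (0.130), P10 2 (0.193) or P10 3 (0.537). Crem, Crtc2, Pde4d and Prkaca, each with 2 to 6 ACS, did not pass. At Creb1 and Pde4b, Up and Down ACS thus stood within the same gene while the sum over the gene was not called.

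The gene totals most like that of Adcy8 over the 6 libraries, among 3026 genes with at least 10 ACS, were those of Neto1 (Pearson r 0.999), Arrdc3 (0.998) and Pla2g4a (0.998). These values describe 6 libraries of 2 ages, which share their depths, and the ranking follows from comparing many genes.

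Around the members, 57 further genes of the pathway were examined by list, of which 51 had 574 ACS. Of these ACS 90 (15.7%) were Up and 50 (8.71%) Down, with a median log2 fold change of 0.01, against 12.3% Up and 6.63% Down over all ACS, the shares to set beside each list that follows. The other adenylyl cyclases had 10 Up and 4 Down of 60 ACS, and the other phosphodiesterases 22 Up and 14 Down of 118. Among the phosphodiesterases, Pde10a had 9 Up and 0 Down of 19. The G protein subunits had 3 Up and 4 Down of 47. Protein kinase A subunits, inhibitors and anchors had 31 Up and 18 Down of 189, of which Prkacb, a further catalytic subunit, had 16 Up and 13 Down of 87. Genes of the Epac branch, which acts on Rap1 and on vesicle release, had 12 Up and 2 Down of 54. Partners of CREB had 1 Up and 2 Down of 34, and known targets of CREB 11 Up and 6 Down of 72. At start sites the 41 TSS ACS of the lists held 0 Up and 3 Down, where 2.73% of all ACS within 1 kb of a start were Up and 7.88% Down. Pde10a and Prkacb were chosen for mention after their values were seen.

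The ACS of these lists with the smallest p-values lay far from their starts. Near Irs2, which encodes an insulin receptor substrate that CREB induces, an ACS 161753 bp from the start (16, 83448938 to 83449652) held 32.1, 30.7 and 36.6 CPM in adults and 14.9, 8.34 and 8.67 CPM in P10 (log2 fold change 1.63, SE 0.22, edgeR FDR 1.23e-05). Near Gnai3, which encodes an inhibitory G protein subunit, an ACS 109122 bp upstream held 7.23, 6.72 and 10.4 CPM in adults and 1.91, 1.498 and 2.17 CPM in P10 (log2 fold change 2.105, SE 0.30). Both were Up without overlap, and so was an ACS inside Pde3a, the relative of Pde3b, 107794 bp from its start (log2 fold change 1.28, SE 0.19). Adcy1, a further calcium-stimulated cyclase, had 5 Up and 1 Down of 12 ACS. The Down ACS, 179213 bp upstream, held 5.78, 6.14 and 5.41 CPM in adults and 16.8, 15.05 and 12.1 CPM in P10 (log2 fold change -1.34, SE 0.24, edgeR FDR 3.73e-04). The other Down ACS with the smallest p-values were a pair near Prkacb, 877012 and 1665567 bp upstream (log2 fold changes -1.502 and -1.99).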

How the data were processed

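ATAC-seq was performed on rat islet cells from 3 adult and 3 P10 samples. According to the study's methods and the submitters' processing notes, the authors aligned reads to Rn5 with BWA 0.7.13, discarded mitochondrial reads and reads with a mapping quality under 30, called peaks with MACS2 2.1.1 on the pooled samples of each age, and quantified Tn5 integrations with pyDNase. Removal of PCR duplicates is not given in the sources used here. The deposited values are raw counts of integrations per ACS and library, without normalization, and the authors' nearest gene, distance and coordinates (Rn5) were used as given. The deposited log2 fold changes, p-values and FDR of the authors' own comparison were not used.

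Of 101941 listed entries, 338 were repeats of an ACS and 6899 had no gene symbol. Each of the 101603 distinct ACS entered the fit once. Counts were scaled by TMM (factors 0.93 to 1.04) and tested with the quasi-likelihood test of edgeR 4.0.16 in R 4.3.3, with age as the only term and Benjamini-Hochberg adjustment over all ACS. Gene totals were fitted likewise over 14776 genes, and unequal change within a gene with the splicing test of edgeR. The procedure was tested on simulated data. With 3 libraries per age, each test set the difference between the ages against the variation between libraries, with dispersions estimated over all ACS. This variation mixes differences between animals or litters with those of library preparation and counting, which cannot be told apart. No variation beyond these libraries enters the errors given. Alternatives were limma 3.58.1 (voom, cyclic loess with limma-trend), DESeq2 1.42.0, other library sizes, count filters, all listed entries, a stricter FDR limit (0.05) and the omission of 1 library at a time.

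The members, the pathway and marker lists and the rule for named ACS (every called ACS, every TSS ACS, and the 3 Up and 3 Down pathway ACS without overlap with the smallest p-values) were chosen with earlier results of these data known. Promoter sequences and motif positions came from RefSeq (GRCr8). A promoter table entry was found for 8 of the 10 genes, but not for Adcy8 and Pde3b. Sequences of the ACS themselves were not analysed here.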

Additional observations from a re-analysis of the deposited data

How the results depend on the processing

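Of 774 values recomputed under an alternative, 637 kept their direction and side of the threshold. Without a change of sign, 81 lost and 23 gained a call. The other 33 changed sign, with or without a change of call. An FDR under 0.05 left 7177 Up and 1945 Down ACS in all, 11 Up and 4 Down ACS of the cyclic AMP genes, and 421 Up and 124 Down gene totals. With total reads as library sizes there were 1062 Up and 61663 Down ACS, 3 Up and 70 Down ACS of the cyclic AMP genes, and 11 Up and 12745 Down gene totals. Column sums gave 10732 Down ACS and 2182 Down gene totals, and a mean of at least 50 counts gave 2212 Down gene totals. Leaving out 1 library gave 7973 to 13232 Up and 3285 to 7215 Down ACS, 11 to 18 Up and 4 to 10 Down ACS of the cyclic AMP genes, 394 to 2065 Up and 195 to 938 Down gene totals, and 3830 to 5177 genes with unequal change. The lowest of these counts, and the 11 Up and 4 Down, came without P10 2, and without P10 3 there were also 4 Down.

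Signs changed with total reads at Adcy5 15355 bp upstream (-0.11), at Adcy8 539 bp (-0.63), 8171 bp (-0.018), 176714 bp (-0.30) and 437704 bp (-0.32), at Pde4b 214931 bp (-0.34) and 271181 bp (-0.058), at Creb1 301 bp (-0.71) and 12732 bp (-0.019), and for the totals of Adcy8 (-0.45), Creb1 (-0.63) and Pde4b (-0.59). At Prkaca 665 bp upstream the value was -0.052 with column sums, -0.0092 with cyclic loess, -0.045 with a mean of at least 50 counts and -0.80 with total reads, and the total of Prkaca was -0.049, -0.042 and -0.80 with column sums, the mean filter and total reads. Leaving out 1 library gave values on both sides of 0 at Adcy5 425 bp upstream (-0.19 to 0.086), Adcy8 930 bp (-0.25 to 0.058) and Prkaca 665 bp upstream (-0.063 to 0.10) and for the totals of Adcy5 (-0.066 to 0.052), Crtc2 (-0.19 to 0.053), Pde4d (-0.12 to 0.071) and Prkaca (-0.053 to 0.10). None of these 7 was called as reported. The cause was not tested. No paired analysis was possible because the ages share no replicate numbers. Depth limits ACS with few counts, 11 of the 130 having a mean under 20.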
